A study of Mus musculus with 3 samples.

Results

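The genes described here encode the constant parts of the T cell receptor, *Trac* (alpha chain), *Trbc1* and *Trbc2* (beta chain), *Trdc* (delta chain) and *Tcrg-C1* (gamma chain). These 5 of the 54838 genes listed with the counts were chosen by name, with earlier results on these thymus sections known. They were measured in spatial transcriptomes of thymus from 3 female C57BL/6 mice. The section labelled WT1101 came from a *Trp53*+/+ mouse aged 17 weeks, the section labelled KO1134 from a *Trp53*-/- mouse aged 17 weeks and the section labelled KO1308 from a *Trp53*-/- mouse aged 21 weeks. A supplement of the study describes, under the name of mouse KO1308, a section that resembles the one labelled KO1134, so the labels and ages of the KO sections may be exchanged; the labels are used here. All mice were perfused with buffer before the thymus was taken, and the tissue was permeabilised for longer in KO than in WT. Transcripts were captured by their poly(A) tails on barcoded spots and unique molecular identifiers (UMIs) kept copies of a transcript from being counted again. Counts of spots were added up in 27 µm bins, of which those over tissue with at least 300 genes were kept. A bin can hold several cells. Genotypes could not be tested against each other with 1 WT section, and the brackets give 95% intervals that cover counting error only.

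A developing T cell joins variable and joining segments, with diversity segments between them in beta and delta chains. The constant part of each chain anchors it in the membrane. The beta chain is rearranged first and pairs with the pre-T alpha chain, and rearranged alpha chains appear later, in cortical cells that carry both CD4 and CD8. A beta chain uses either *Trbc1* or *Trbc2*, a choice that is kept by the daughters of a cell. Gamma-delta T cells use *Trdc* and a *Tcrg-C* gene, and the delta locus lies inside the alpha locus and is deleted when the alpha chain is rearranged.

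In the GENCODE M21 annotation of GRCm38, *Trbc1* (ENSMUSG00000076490) lies at chr6:41538218-41539881 and *Trbc2* (ENSMUSG00000076498) at chr6:41546730-41548352, both on the plus strand. *Trdc* (ENSMUSG00000104876) lies at chr14:54142851-54148868 and *Trac* (ENSMUSG00000076928) at chr14:54220521-54224206, on the plus strand of the same chromosome. *Tcrg-C1* (ENSMUSG00000076749) lies at chr13:19214103-19217024, also on the plus strand. The sequences of *Trbc1* and *Trbc2* show how far the counts of both genes can be separated. Their coding parts are 518 bases long and differ at 23 bases, with an identical run of 259 bases. The 90 coding bases with the most differences, all in the exon numbered 3 in both genes, are printed from the annotated transcripts with the 14 differing bases in capitals.
Trbc1, chr6:41539235-41539324: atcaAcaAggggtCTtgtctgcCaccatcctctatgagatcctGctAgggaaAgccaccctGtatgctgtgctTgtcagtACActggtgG
Trbc2, chr6:41547778-41547867: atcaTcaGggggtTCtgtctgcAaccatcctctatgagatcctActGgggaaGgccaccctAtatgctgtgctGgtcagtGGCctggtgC
Beyond the coding part, on the side of the poly(A) tail, the genes had no identical run longer than 8 bases in 219 bases of *Trbc1* and 174 bases of *Trbc2*. Where the reads fell in the transcripts was not tested. *Tcrg-C1* is less separable from its neighbours. After the coding part, 387 of its 409 bases are the same in *Tcrg-C2*, and its coding part matched 487 of the 500 bases of *Tcrg-C2* and 429 of the 443 bases of *Tcrg-C3*. Its level is therefore uncertain against those genes.

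The kept bins numbered 12009 in the section labelled KO1134, 16140 in the section labelled KO1308 and 27104 in WT, with means of 2591, 1090 and 1497 UMIs per bin. *Trp53* had 17.0, 25.1 and 79.9 counts per 1000000 UMIs (CPM), so that WT stood above both KO sections. Bins were assigned to compartments from epithelial, thymocyte, B cell and fat genes in the surrounding 7 × 7 bins, without the constant genes. The 6 thymus genes that set the thymus area were *Themis*, *Arpp21*, *Ptcra*, *Cd8b1*, *Prss16* and *Psmb11*. Within the thymus area, cortical bins were those rich in cortical epithelial genes such as *Prss16* and *Psmb11*. Medullary bins were those of that area rich in medullary epithelial genes such as *Krt5* and *Aire*. Lymph-node-like bins, with more B cell than thymus UMIs, made up 1959 bins of KO1134, 449 bins of KO1308 and none of WT. Fat-rich bins made up 747, 649 and none. The remaining bins, outside the thymus area, numbered 654, 1650 and 2415 in the same order. Their medullary epithelial markers summed to 2253, 1687 and 1260 CPM, above the 1554, 1452 and 484 CPM of the medullary bins. The medullary bins therefore do not hold all tissue rich in these genes. The 3 B cell markers summed to 223, 129 and 40.9 CPM and the 5 adipocyte markers to 598, 887 and 8.75 CPM. Without the lymph-node-like bins the ratios to WT in KO1134 were 0.525 for *Trac*, 0.598 for *Trbc1*, 0.232 for *Trbc2*, 2.22 for *Trdc* and 7.50 for *Tcrg-C1*, beside the values over all kept bins given next. The part of the adipocytes was not tested.

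The alpha-beta genes had their highest levels in WT, whereas *Tcrg-C1* had its lowest level there. *Trac* had 488 CPM (482 to 495) in WT, 306 CPM (300.3 to 313) in KO1134 and 279 CPM (271 to 287) in KO1308. The ratios to WT were 0.628 (0.612 to 0.643) and 0.571 (0.553 to 0.589), so the KO sections lay close to each other. Fewer T cells and less RNA per T cell cannot be told apart in these bins.

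*Trbc1* had 2549 CPM (2534 to 2565) in WT, 1368 CPM (1355 to 1381) in KO1134 and 1057 CPM (1041 to 1072) in KO1308. *Trbc2* had 4313 CPM (4292 to 4333) in WT, 1021 CPM (1010 to 1032) in KO1134 and 1990 CPM (1969 to 2011) in KO1308. Whereas *Trbc1* stood at 0.537 and 0.414 of WT, *Trbc2* stood at 0.237 in KO1134 and 0.461 in KO1308. The order of the genes therefore differed between sections, with *Trbc2* above *Trbc1* in WT and KO1308 and *Trbc1* above *Trbc2* in KO1134.

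*Trdc* had 68.4 CPM (65.9 to 71.0) in WT, 126 CPM (122 to 130) in KO1134 and 45.6 CPM (42.5 to 48.9) in KO1308. It was thus 1.85 times the WT level in KO1134 and 0.667 of it in KO1308. *Tcrg-C1* had 48.1 CPM (46.0 to 50.3) in WT, 295 CPM (289 to 301) in KO1134 and 78.5 CPM (74.4 to 82.8) in KO1308, at 6.14 and 1.63 times WT. The KO sections differed 2.77-fold in *Trdc* and 3.76-fold in *Tcrg-C1*, against 1.10-fold in *Trac*. The means of the KO sections were 292.5 ± 19.6 CPM for *Trac*, 1212 ± 220.3 for *Trbc1*, 1505 ± 685 for *Trbc2*, 86.0 ± 57.1 for *Trdc* and 187 ± 153 for *Tcrg-C1* (SD, n = 2).

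In KO1134, 1 of the 5 genes (*Trbc2*) was at least 2-fold lower than in WT, beside 7.93% of 15242 genes with at least 100 UMIs, and 1 (*Tcrg-C1*) was at least 2-fold higher, beside 13.3%. In KO1308, *Trbc1* and *Trbc2* were at least 2-fold lower, beside 4.38% of 14838 genes, and none was at least 2-fold higher, beside 15.4%. The median ratio to WT over those genes was 0.975 in KO1134 and 1.06 in KO1308. Since the genes were chosen with such ratios known, nothing is read from these counts.

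The direction for *Trac* depended on the denominator. The 4 receptor partners *Cd3d*, *Cd3e*, *Cd3g* and *Cd247*, which encode the signalling chains that carry every T cell receptor to the surface, summed to 1790 CPM in WT, 795 CPM in KO1134 and 1036 CPM in KO1308. Counted per UMI of these partners, *Trac* in KO1134 was 1.41 times WT and in KO1308 0.987 of WT, and *Trbc1* in KO1134 was 1.21 times WT. On the same scale *Trbc2* stayed at 0.533 of WT in KO1134 and 0.798 in KO1308, and *Tcrg-C1* stood at 13.8 and 2.82 times WT. *Trdc* per partner UMI was 4.16 times WT in KO1134 and 1.15 times WT in KO1308, where it was below WT in CPM.

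**Figure D1:**
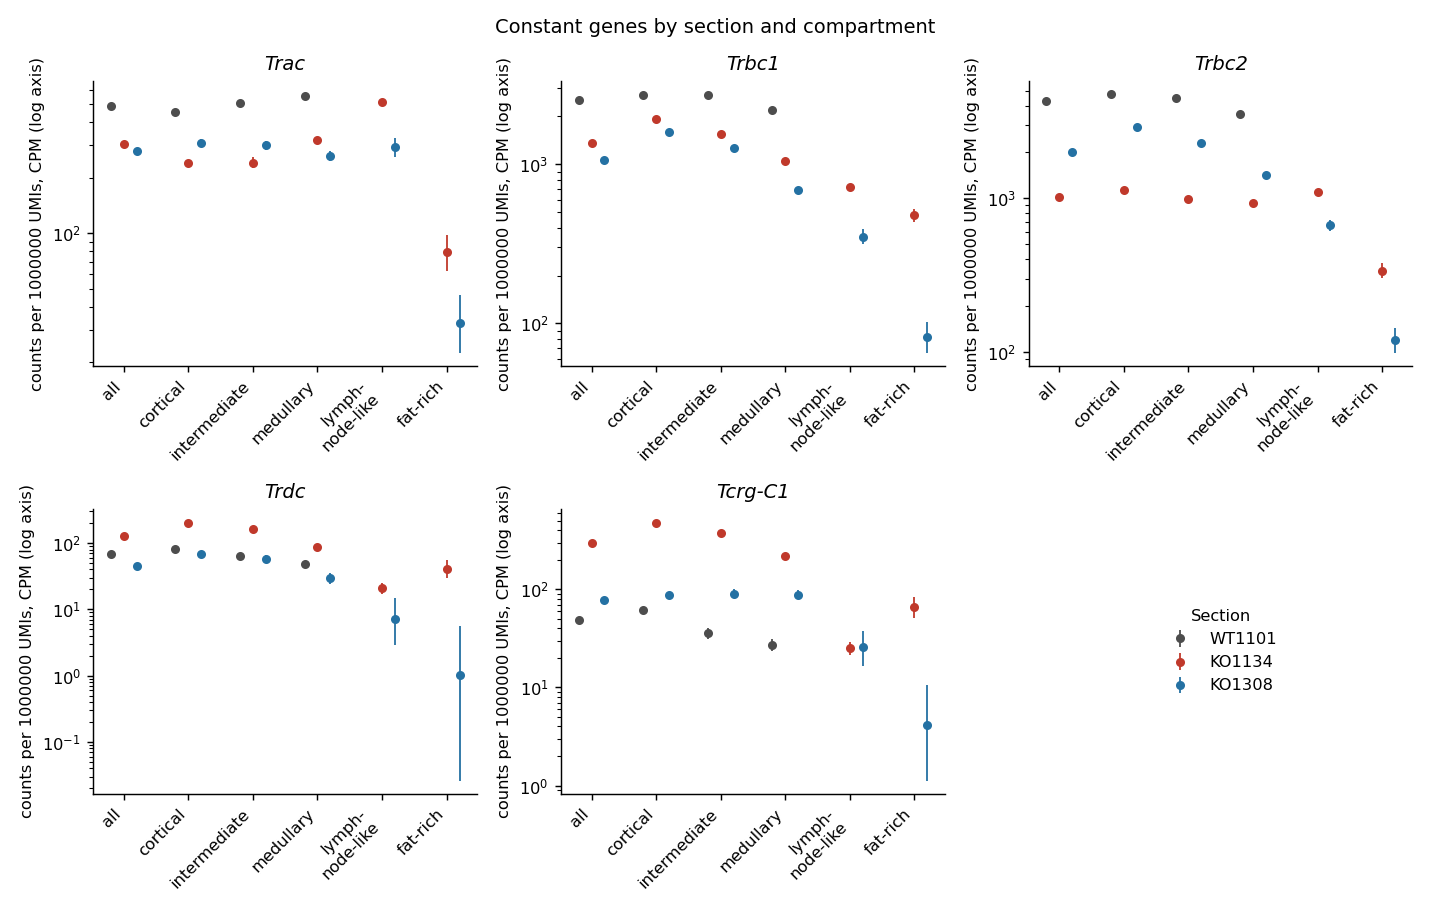
Level in CPM (log axis) of each constant gene in all kept bins and in each compartment, for WT1101 (grey), KO1134 (red) and KO1308 (blue), with 95% counting intervals as bars; WT had no lymph-node-like or fat-rich bins. *Trac*, *Trbc1* and *Trbc2* lie highest in WT in each thymus compartment, while *Tcrg-C1* reaches 477 CPM in cortical bins of KO1134 against 61.4 in WT.

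Ratios among the genes need no scaling to depth. *Trbc1* made up 37.2% (37.0 to 37.3) of *Trbc1* plus *Trbc2* UMIs in WT, 34.7% (34.3 to 35.1) in KO1308 and 57.3% (56.9 to 57.6) in KO1134, from 278426, 53575 and 74341 UMIs. The *Trbc1* to *Trbc2* ratio was thus 0.591, 0.531 and 1.34. The share of KO1134 stood 20.1 points above WT, whereas that of KO1308 stood 2.47 points below it.

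Alpha-beta UMIs (*Trac*, *Trbc1* and *Trbc2*) outnumbered gamma-delta UMIs (*Trdc* and *Tcrg-C1*) 63.1-fold (61.3 to 64.9) in WT, 26.8-fold (25.7 to 28.0) in KO1308 and 6.39-fold (6.28 to 6.51) in KO1134. Both KO sections lay below WT, and they differed 4.19-fold from each other. Within the gamma-delta genes, *Tcrg-C1* UMIs per *Trdc* UMI were 0.704 (0.664 to 0.746) in WT, 1.72 (1.58 to 1.88) in KO1308 and 2.34 (2.25 to 2.43) in KO1134. With *Tcrg-C1* to *Tcrg-C4* summed, a choice made after seeing the data, the alpha-beta to gamma-delta ratio was 37.4 in WT, 12.8 in KO1308 and 2.74 in KO1134, in the same order. *Trac* UMIs per *Trbc1* plus *Trbc2* UMI were 0.0712 (0.0701 to 0.0722) in WT, 0.0915 (0.0888 to 0.0942) in KO1308 and 0.128 (0.126 to 0.131) in KO1134.

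Compartments were compared within each section, where genotype and permeabilisation are shared. *Trbc1* and *Trbc2* were higher in cortical than in medullary bins in all 3 sections. In WT, *Trbc2* had 4731 CPM in cortical and 3531 CPM in medullary bins. In KO1308 it had 2907 and 1418 CPM, and in KO1134 1129 and 929 CPM. *Trac* showed another pattern, with 455 CPM in cortical and 552 CPM in medullary bins of WT, 240 and 319 CPM in KO1134, and 310 and 262 CPM in KO1308.

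*Trac* per beta chain UMI was therefore lowest in the cortical bins of each section, and highest in lymph-node-like bins where there were any. In cortical bins it was 0.0608 (0.0596 to 0.0620) in WT, 0.0690 (0.0659 to 0.0722) in KO1308 and 0.0782 (0.0754 to 0.0812) in KO1134. In medullary bins it was 0.0966 (0.0936 to 0.0997), 0.125 (0.116 to 0.133) and 0.161 (0.154 to 0.169) in the same order. The remaining bins outside the thymus area, richer in medullary epithelial genes, had 0.186, 0.208 and 0.212. Lymph-node-like bins had 0.287 (0.251 to 0.328) in KO1308 and 0.282 (0.271 to 0.293) in KO1134, with intervals that overlapped. The B cell rich area thus had 3.60 times the *Trac* per beta chain UMI of the cortical bins of KO1134, and the value of that section without lymph-node-like bins was 0.101.

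The gamma-delta genes were not evenly spread either. *Tcrg-C1* had 477 CPM (465 to 489) in cortical, 373 CPM in intermediate and 221 CPM in medullary bins of KO1134, and only 25.0 CPM (21.2 to 29.3) in its lymph-node-like bins. *Trdc* had 203, 161, 88.4 and 20.7 CPM in the same order. In WT, *Tcrg-C1* had 61.4 CPM in cortical and 27.3 CPM in medullary bins and *Trdc* 80.9 and 48.3 CPM. KO1308 held the same order for *Trdc*, with 68.6 and 29.7 CPM, whereas its *Tcrg-C1* had 86.8 CPM (79.8 to 94.3) in cortical and 88.5 CPM (79.0 to 98.8) in medullary bins, which did not differ beyond counting error. In the cortical bins, *Tcrg-C1* was 7.78 times WT (7.35 to 8.24) in KO1134 and 1.42 times WT (1.28 to 1.56) in KO1308. Cortical bins were set within each section and are not alike between sections. Their medullary epithelial markers summed to 39.5 CPM in WT, 128 CPM in KO1134 and 236 CPM in KO1308. Their adipocyte markers summed to 11.4, 141 and 628 CPM in the same order.

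Fat-rich bins had fewer UMIs of the receptor partners, 74.9 CPM in KO1308 and 281 CPM in KO1134. In KO1308 they had 32.8 CPM of *Trac*, 82.1 CPM of *Trbc1*, 119 CPM of *Trbc2*, 1.03 CPM of *Trdc* (1 UMI) and 4.10 CPM of *Tcrg-C1* (4 UMIs), so UMIs of abundant thymic transcripts also occurred there. In KO1134 the fat-rich bins had 78.8, 477, 338, 40.9 and 65.9 CPM in the same order. All values of the cortical and medullary bins lay above those of the fat-rich bins of the same section.

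**Figure D2:**
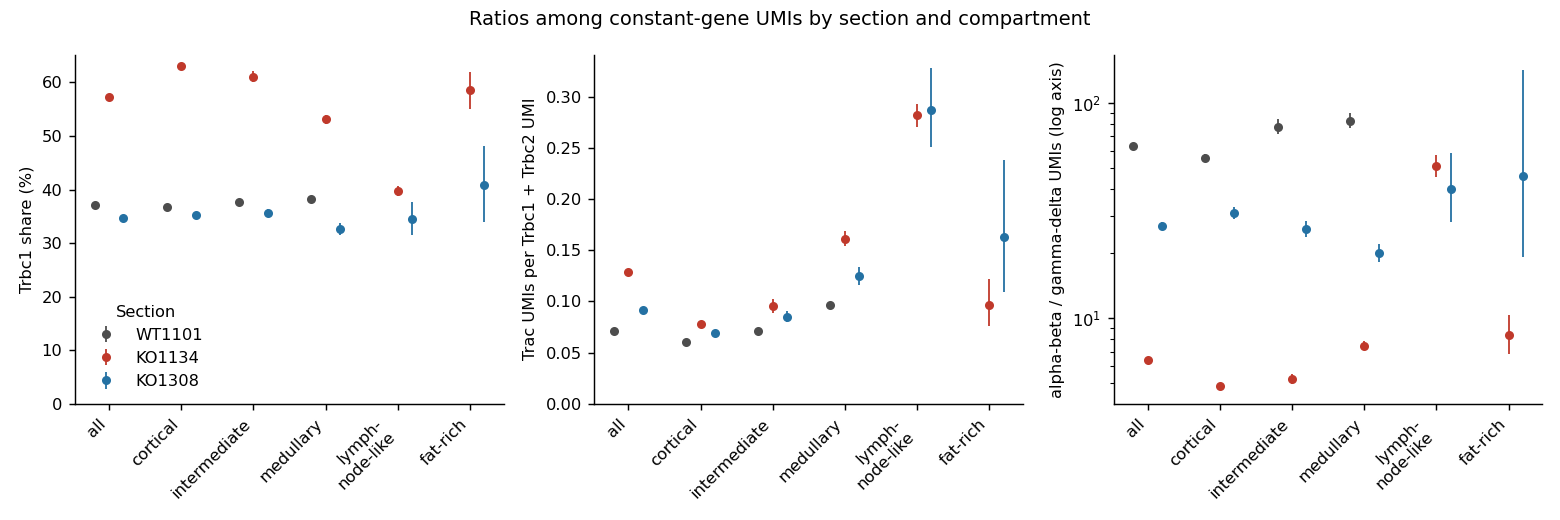
The *Trbc1* share of beta chain UMIs (left, percent), *Trac* UMIs per beta chain UMI (centre) and alpha-beta UMIs per gamma-delta UMI (right, log axis) by compartment for WT1101 (grey), KO1134 (red) and KO1308 (blue), with 95% counting intervals. The *Trbc1* share of KO1134 is 63.1% in cortical and 39.7% in lymph-node-like bins, and *Trac* per beta chain UMI is lowest in cortical bins of all 3 sections.

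The *Trbc1* share was also followed across each slide, in squares of 540 µm with at least 50 kept bins and 30 beta chain UMIs. In WT the share varied little. Over 92 squares it lay between 34.0% and 42.1% with a median of 37.3%, and its SD was 1.35 points, where counting alone gives 0.992 points on average. The highest values, 42.1% (40.3 to 44.0) and 41.3% (39.5 to 43.2), were in squares that adjoin each other, and their intervals lay above the 37.2% of the section. By compartment the WT share was 36.7% in cortical, 37.7% in intermediate and 38.2% in medullary bins.

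The KO sections were patchy. Over 38 squares of KO1134 the share lay between 36.4% and 69.7% (median 58.3%, SD 9.38 points, counting 1.48 points). Over 61 squares of KO1308 it lay between 7.08% and 44.8% (median 34.6%, SD 7.79 points, counting 2.15 points). In KO1134, 31 of 38 squares were above 50%, and in WT and KO1308 none was. Between 30% and 45% lay all 92 squares of WT, 46 of 61 in KO1308 and 6 of 38 in KO1134. Squares of a section share its library and are not replicates.

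**Figure D3:**
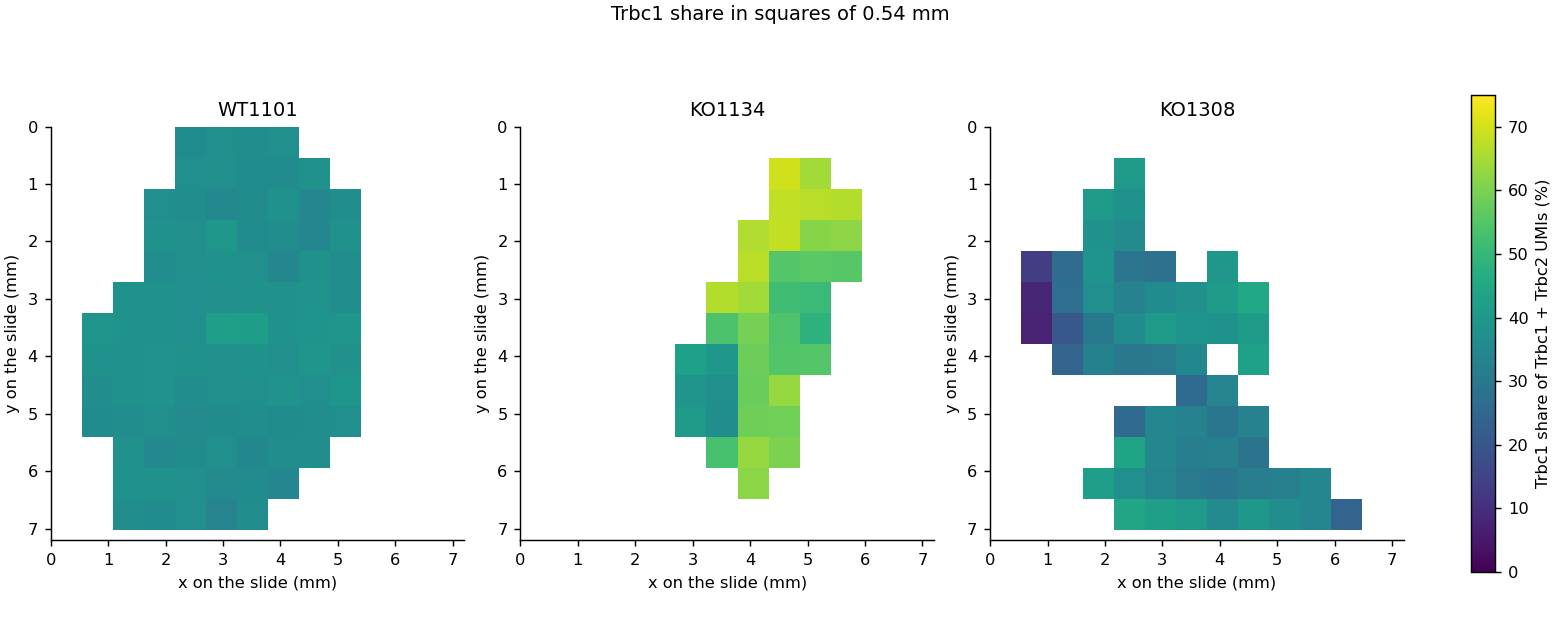
Maps of the 3 sections in squares of 540 µm, placed by their position on the slide in mm and coloured by the *Trbc1* share of beta chain UMIs (percent). WT1101 runs from 34.0% to 42.1%, KO1134 runs from 69.7% at one end to values near 40% in its lymph-node-like area at x of about 3 mm, and KO1308 holds a group of 3 dark squares below 15% at its left edge.

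In KO1134 the 6 squares with at least 50% lymph-node-like bins had shares of 36.4% to 42.3%, and the 28 squares with at least 50% thymus bins had 48.3% to 69.7% (median 60.4%). The lymph-node-like bins as a whole, with 39.7% (38.8 to 40.6), stood nearer to the WT value of 37.2% than to the cortical bins of the same section, which had 63.1% (62.7 to 63.6). In 8 squares the share was at least 65%, from 66.1% upwards, and the next square below had 64.7%. Over the 28 thymus squares the share had a Spearman correlation of 0.595 with the gamma-delta level and of -0.511 with *Trac*, beside 0.533 with the percentage of cortical bins. The signs were not the same in the other sections, where the share had a correlation of 0.633 (KO1308, 55 squares) and 0.169 (WT, 89 squares) with *Trac* and of 0.457 and -0.227 with the gamma-delta level. These squares share library and depth, and the correlations are descriptions.

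Also within bins, UMIs of the same gene lay together more often than over the whole section. Drawn from a bin with at least 2 beta chain UMIs, a pair of UMIs was of the same gene in 55.3% of draws in KO1134, in 59.6% in KO1308 and in 54.7% in WT, as a mean over 9948, 9628 and 24600 bins. Pairs drawn from the same square would be of the same gene in 52.7%, 56.6% and 53.3%, and pairs drawn from the whole section in 51.1%, 54.6% and 53.3%. The excess of bins over the section was 4.20, 5.05 and 1.43 points. Beta chain UMIs per bin also differed, with 74341 UMIs in 12009 kept bins of KO1134, 53575 in 16140 of KO1308 and 278426 in 27104 of WT. Where fewer cells supply the UMIs of a bin, pairs come more often from the same cell. The part of this in the excess was not tested.

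At the left edge of KO1308, 3 adjoining squares had a *Trbc1* share below 15%, a limit set after the values were seen. They held 618 kept bins, 553 cortical and 65 intermediate, or 3.83% of the section. *Trbc1* had 179 UMIs there and *Trbc2* 2049 UMIs, a share of 8.03% (6.94 to 9.24). The squares themselves had 13.3%, 7.98% and 7.08%, and the next lowest square of the section, which adjoins them, had 20.5%. In the other cortical bins of the section the share was 37.4% (36.8 to 38.0), and all other kept bins together had 35.8%.

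*Trbc1* differed more than *Trbc2*, which the choice of squares by a low *Trbc1* share fixed in advance. *Trbc1* had 193 CPM (166 to 224) in these squares against 1797 CPM (1762 to 1833) in the other cortical bins, while *Trbc2* had 2210 CPM (2115 to 2307) against 3012 CPM (2967 to 3058). *Trac*, which the share does not use, had 104 CPM (83.9 to 126) against 342 CPM (327 to 358). *Trdc* had 21.6 CPM (13.2 to 33.3) against 75.9 CPM (68.8 to 83.5), and *Tcrg-C1* 55.0 CPM (41.0 to 72.3) against 92.7 CPM (84.9 to 101). All 5 genes were thus lower in these squares, least so *Trbc2*, and for *Trbc1* and *Trbc2* the choice by the share enters this order. *Trac* per beta chain UMI was 0.0431 (0.0348 to 0.0529) against 0.0711 (0.0678 to 0.0745), while the alpha-beta to gamma-delta ratio was 32.7 (25.9 to 42.1) against 30.6 (28.6 to 32.6), within counting error.

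The share was graded along the slide. In columns of 270 µm through the same rows, starting at the left edge, the *Trbc1* share was 6.52% (4.92 to 8.44), 8.91% (7.47 to 10.5), 21.4% (19.6 to 23.4), 27.1% (25.4 to 29.0), 33.4% (31.2 to 35.6) and 37.7% (35.4 to 40.0). *Trbc1* ran from 150.2 CPM in the first column to 989 CPM in the sixth, and *Trac* from 70.8 to 279 CPM. *Trbc2* had 2153 CPM in the first column and 1636 CPM in the sixth. The share then stayed between 34.3% and 40.1% in the next 6 columns.

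**Figure D4:**
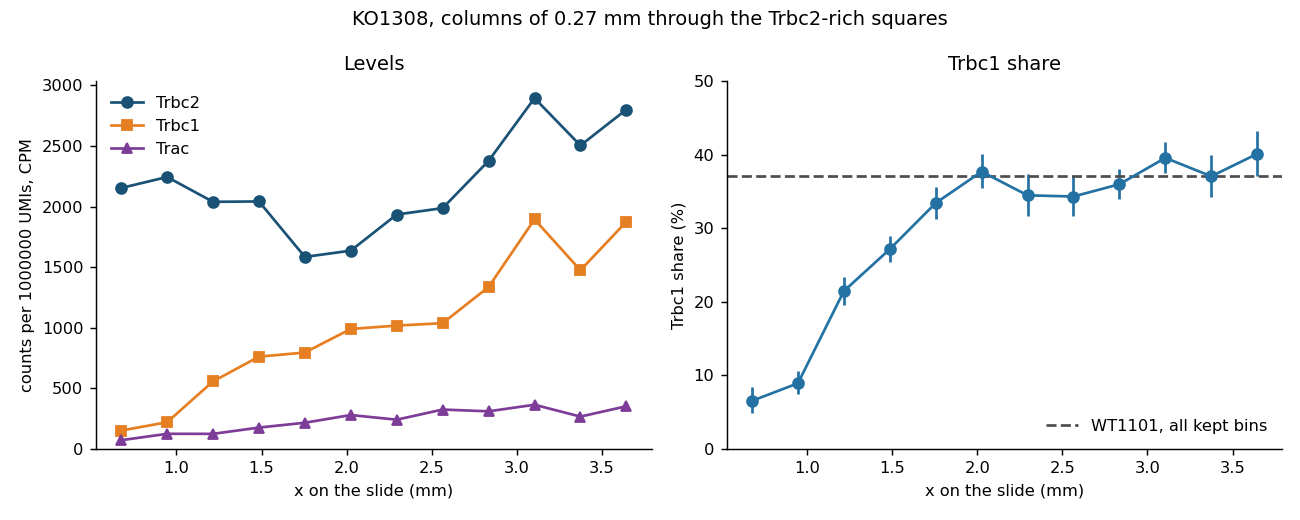
Levels of *Trbc2*, *Trbc1* and *Trac* in CPM (left) and the *Trbc1* share in percent with 95% counting intervals (right) in 12 columns of 270 µm across KO1308, through the rows of the squares below 15%, against position on the slide in mm. The share runs from 6.52% at the left edge to 37.7% in the sixth column, near the WT value of 37.2% (dashed line). *Trbc1* is lowest where the share, by which these rows were chosen, is lowest, while *Trbc2* is not. Cortical bins become fewer from the left edge to the sixth column. Against the other cortical bins of the section, *Trbc2* is lower in the squares below 15%.

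Other T cell genes in these squares, from lists chosen with earlier results of these data known, were set beside the other cortical bins. All 3 coreceptor genes were at least 2-fold lower, *Cd4* with 71.2 against 325 CPM, *Cd8a* with 221 against 1012 CPM and *Cd8b1* with 155 against 844 CPM, and all 4 genes of pre-receptor and recombination were at least 2-fold lower, among them *Rag1*, a recombinase subunit, with 112 against 488 CPM. Of the 4 receptor partners 2 were at least 2-fold lower, *Cd3g* at 0.398 and *Cd247* at 0.447 of the other cortical bins. Over 11663 genes with at least 50 UMIs in either area, 8.74% were at least 2-fold lower and 2.91% at least 2-fold higher. Of the 7 gamma-delta genes, *Tcrg-C4* was higher, with 146 against 61.7 CPM, and 5 were below the other cortical bins, of which only *Tcrg-C2*, at 0.757 (0.584 to 0.968), had an interval below 1. The mature T cell genes *Ccr7*, *S1pr1*, *Klf2* and *Il7r* lay at 1.02 to 1.61 times the other cortical bins, none of them 2-fold.

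Markers of other cells differed too. Of the 5 adipocyte markers, *Adipoq*, *Plin1*, *Cidec* and *Car3* had 0 of the 927285 UMIs in these squares. The intervals of their ratios to the other cortical bins reached up to 0.113, 0.231, 0.170 and 0.0276. The list summed to 16.2 CPM against 721 CPM. The 3 B cell markers summed to 29.1 against 47.4 CPM and the 5 myeloid markers to 751 against 526 CPM. The 4 cortical epithelial markers summed to 2485 against 2162 CPM. Mean UMIs per bin were 1500 in these squares and 1192 in the other cortical bins. The part of these differences in the share was not tested.

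Chosen after their values were seen, the 10 genes with the largest ratio to the other cortical bins among those with at least 50 UMIs in these squares were *C230014O12Rik*, *Dlk1*, *Pax4*, *Rps6ka2*, *Ildr2*, *2700068H02Rik*, *Rab40b*, *Adamts20*, *Gm40323* and *Stra8*. *Pax4*, a transcription factor known from pancreatic islets, had 211 CPM (196 UMIs) against 25.7 CPM, 8.24 times as much (6.61 to 10.3), and 0.335 CPM in cortical bins of WT. *Dlk1*, a Notch ligand relative, had 72.3 against 7.17 CPM, and 0.335 CPM in cortical bins of WT. *Ildr2* had 168 against 22.8 CPM, and 1.34 CPM in cortical bins of WT and 92.9 CPM in those of KO1134. The ratios of the 10 genes ran from 6.31 to 13.1. *Cdkn2a*, an inhibitor of the cell cycle and of Mdm2, had 123 CPM (101 to 148) against 41.3 CPM (36.1 to 46.9), 0.209 CPM in cortical bins of WT and 93.4 CPM in those of KO1134. The proliferation gene *Mki67* had 337 CPM against 474 CPM.

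The gamma-delta genes were mapped in the same squares. In KO1134 *Trdc* plus *Tcrg-C1* ran from 28.6 to 804 CPM over 38 squares (median 393 CPM). KO1308 ran from 7.65 to 333 CPM (median 132 CPM) and WT from 20.3 to 237 CPM (median 112 CPM). In KO1134 the 6 lymph-node-like squares had 10.4 to 52.0 CPM of *Tcrg-C1* and the 28 thymus squares 87.0 to 590 CPM. The 8 squares with the highest *Trbc1* share had 119 to 590 CPM, with a median of 528 CPM. Over the thymus squares, *Trdc* and *Tcrg-C1* had a Spearman correlation of 0.907 in KO1134 (28 squares), 0.533 in WT (89 squares) and -0.0413 in KO1308 (55 squares).

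**Figure D5:**
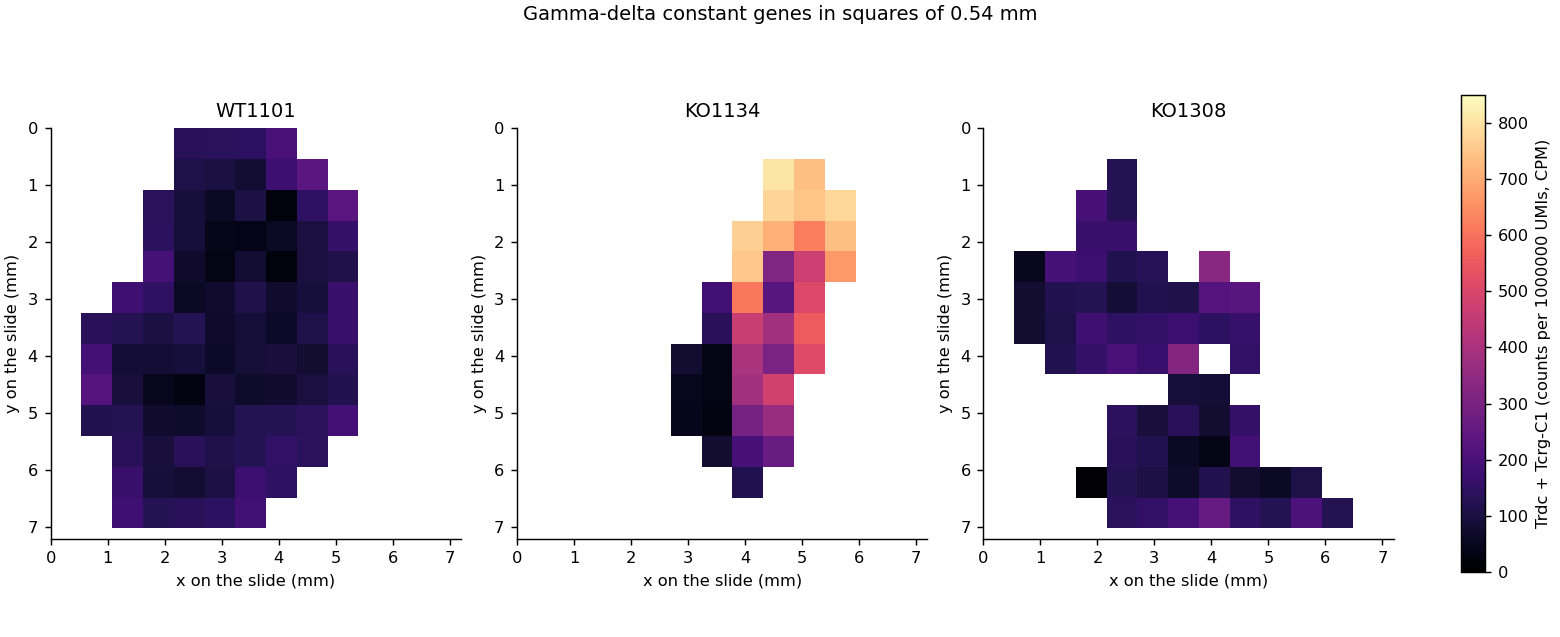
Maps of the 3 sections in squares of 540 µm by position on the slide in mm, coloured by *Trdc* plus *Tcrg-C1* in CPM on a scale shared by the sections. KO1134 reaches 804 CPM in its thymus squares, while the highest squares are at 333 in KO1308 and 237 in WT1101.

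Other gamma-delta genes came from a list of 7, chosen with earlier results of these data known, so its counts are descriptions. The list holds *Tcrg-C2* and *Tcrg-C3*, which are close in sequence to *Tcrg-C1*. Their levels are therefore not separate from that of *Tcrg-C1*. In KO1134, 6 of the 7 were at least 2-fold above WT, beside 13.3% of all genes compared, and *Trdv4* had 1 UMI there and none in WT. *Sox13*, a transcription factor of gamma-delta precursors, had 80.0 CPM in KO1134, 7.85 CPM in KO1308 and 4.93 CPM in WT. *Cd163l1*, a scavenger receptor of gamma-delta T cells, had 126 CPM in KO1134, 28.0 CPM in KO1308 and 8.55 CPM in WT. The Src-family kinase gene *Blk* had 42.0, 16.3 and 4.12 CPM. *Tcrg-C4* had 299, 51.6 and 27.7 CPM and *Tcrg-C2* 258, 82.3 and 51.5 CPM. In KO1308, 3 of the 7 were at least 2-fold above WT, beside 15.4% of all genes compared. Without lymph-node-like bins, a comparison added after seeing the data, the counts were again 6 and 3, beside 13.2% and 14.9%. The median ratio of the 6 genes with a value was 10.5 in KO1134 and 2.34 in KO1308. *Blk* is also expressed by B cells, whose markers stood above WT in both KO sections.

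Among genes that act before and around the alpha-beta receptor, all 4 of the pre-receptor and recombination list were at least 2-fold below WT in both KO sections, beside 7.93% (KO1134) and 4.38% (KO1308) of all genes compared. Without lymph-node-like bins the counts were 4 in KO1134, beside 8.13%, and 2 in KO1308, beside 4.27%, where *Dntt* and *Ptcra* passed to just above 0.5 of WT. *Ptcra* is among the thymus genes by which these bins were set, so the direction of its shift was fixed in advance. *Rag1* had 652 CPM in WT, 286 CPM in KO1308 and 30.8 CPM in KO1134, and *Rag2* 95.4, 33.0 and 1.35 CPM. *Ptcra*, the pre-T alpha chain, had 15.7, 7.62 and 2.47 CPM, and *Dntt*, which adds bases at the joints, had 1119, 554 and 377 CPM. *Cd8a* had 1825 CPM in WT, 612 CPM in KO1308 and 119 CPM in KO1134, while *Cd4* had 252, 203 and 40.7 CPM. Of the genes of mature T cells, *Ccr7*, *S1pr1*, *Klf2* and *Il7r* stood at 2.13, 5.22, 2.32 and 4.004 times WT in KO1134, all at least 2-fold higher (13.3% of all genes), and at 1.23, 1.73, 1.76 and 1.64 times WT in KO1308, where none was (15.4%). They had high levels in the lymph-node-like bins of KO1134, with 329 CPM of *S1pr1*, 226 CPM of *Ccr7* and 230 CPM of *Klf2*, and WT had no such bins. Without those bins *Il7r* stood at 3.55 times WT in KO1134 and was still at least 2-fold higher (13.2% of all genes), whereas *Ccr7* stood at 1.31, *Klf2* at 1.81 and *S1pr1* at 1.97 times WT. *Il7r*, the interleukin 7 receptor, had 352 CPM in KO1134, 144 CPM in KO1308 and 87.8 CPM in WT. These lists were also chosen with earlier results of these data known, so nothing is read from their counts.

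By distance from the outer edge of the tissue, *Trac* was lowest in the outermost 100 µm of each section. It had 327 CPM there and 528 CPM beyond 400 µm in WT, 182 and 338 CPM in KO1134, and 210 and 283 CPM in KO1308. The alpha-beta to gamma-delta ratio in WT was 44.9 (0 to 100 µm), 51.7 (100 to 200 µm), 59.3 (200 to 400 µm) and 76.6 (beyond 400 µm). In KO1308 it was 27.4, 30.8, 26.8 and 23.1, and in KO1134 5.35, 4.99, 6.17 and 7.51. *Tcrg-C1* had 82.7, 69.6, 55.7 and 33.2 CPM in the same zones of WT, but 66.2, 76.3, 89.6 and 76.5 CPM in those of KO1308. The *Trbc1* share was 37.5%, 36.9%, 36.8% and 37.2% in these zones of WT, and in KO1134 it was 62.4%, 60.1%, 57.6% and 55.0%. When distance was taken from the edge of the thymus area instead, *Trac* near the edge was 1.08 times (WT), 1.496 times (KO1134) and 1.04 times (KO1308) the level beyond 400 µm, so the order turned. In KO1308 only 44 bins lay that far inside, with an interval of 145 to 428 CPM that spans the 271 CPM near the edge. In WT the intervals near the edge, 461 to 481.5 CPM, and beyond 400 µm, 399 to 475 CPM, overlapped too. The *Trbc1* share of KO1134 turned as well, with 52.2%, 58.4%, 63.4% and 67.8% from the edge of the thymus area inwards. In WT the alpha-beta to gamma-delta ratio was then 63.2, 63.8, 58.8 and 57.5 and *Tcrg-C1* had 47.9, 50.3, 53.2 and 59.4 CPM, with overlapping intervals in the first and last zones. The thymus area of this measure was not cleared of lymph-node-like bins, so in KO1134 some of them enter its zones. As a whole, the lymph-node-like bins of KO1134 had a *Trbc1* share of 39.7% and 514 CPM of *Trac*. Their part in the turned order was not tested.

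The genes whose level followed each constant gene over the squares differed between sections. In WT, the gene most like *Trbc1* among 9980 genes was *Trbc2* (Spearman 0.910 over 92 squares), followed by *Cyb5a*, *H3f3a*, *Cd8b1* and *Ly6d* (0.810 to 0.873). For *Trbc2* it was *Trbc1*, followed by *Cyb5a*, *Cd8b1*, *Ap3s1* and *H3f3a* (0.779 to 0.869). In KO1134, *Trbc1* and *Trbc2* had a correlation of 0.419 over 38 squares. There *Trbc1* was most like *Hsph1*, *Nap1l1*, *Camk4*, *Pcna* and *Snrpd3* (0.938 to 0.958), and its correlation with *Tcrg-C1* was 0.903. *Trbc2* was most like *Cd3g*, *Cpeb1*, *Hnrnpf*, *Lck* and *Suz12* (0.780 to 0.821).

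In KO1308, *Trbc1* was most like the coreceptor genes *Cd8b1* and *Cd8a*, with correlations of 0.955 and 0.949 over 65 squares, and then *Rmnd5a*, *Satb1* and *Ccnd3*. *Trbc2* was most like *Thy1*, *Tcf7*, *Endou*, *Nsg2* and *Dntt* (0.921 to 0.936). *Trac* was most like *Gimap6*, *Cd52*, *Ubd*, *Abca1* and *Tmsb10* in WT (0.756 to 0.800), like *Ptprc*, *Arhgap45*, *Rasgrp1*, *Mir142hg* and *Traf3ip3* in KO1308 (0.803 to 0.835) and like *Rgs19*, *Cd79a*, *Arhgdib*, *Cd38* and *Ms4a4b* in KO1134 (0.835 to 0.873). *Cd79a* is a B cell marker, and *Trac* of KO1134 had its highest level in lymph-node-like bins, 514 CPM. With *Trbc1*, *Trac* had a correlation of -0.242 in WT, -0.239 in KO1134 and 0.734 in KO1308. These correlations were not limited to thymus squares. Squares with at least 50% thymus bins and 30 beta chain UMIs were 89 of 92 in WT, 28 of 38 in KO1134 and 55 of 65 in KO1308. The part of the other squares was not tested. The squares of a section share library, depth and tissue, and the correlations are given without p.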

How the data were processed

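Thymus sections of 2 *Trp53*-/- mice and 1 *Trp53*+/+ mouse were measured by spatial transcriptomics. Reads were aligned with STAR inside BSTMatrix by the authors, who deposited whole-number UMI counts for every gene in every spot, not normalised, together with spot positions. The labels name GRCm38. Spots lie 4.8 µm apart and were summed in bins of 27 µm. Bins with at least 300 genes and at most 30% mitochondrial UMIs, in connected groups of at least 200 bins, were kept. Depth was 31237062 UMIs in KO1134, 21089885 in KO1308 and 41581477 in WT. CPM are UMIs per 1000000 UMIs of the bins summed, not divided by length, because transcripts are counted at their 3′ ends. Thymus bins were those whose 7 × 7 neighbourhood reached 50% of what 6 thymus genes make up over the whole section, and were cortical or medullary when those epithelial genes were in 1.5-fold excess; fat-rich bins had 1000 CPM of fat genes. Exact Poisson, Clopper-Pearson and conditional binomial intervals at 95% were used, tested on simulated data. The members, gene lists and markers were chosen with earlier results of these data known. Named genes are the members, *Trp53*, those lists and the 5 genes most alike among those with at least 500 UMIs; the squares of KO1308 below 15% and their genes were chosen after their values were seen. The spot barcodes and the authors' annotation were not used here. 1 gene of the mature T cell list is not reported here. Python 3.11.15, numpy 2.4.6, scipy 1.17.1, pandas 2.3.3 and matplotlib 3.10.9 were used.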

Additional observations from a re-analysis of the deposited data

Results flagged for a closer look

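Bins left out as not over tissue, which enter only the values recomputed over every deposited spot, also held UMIs of the gamma-delta genes, and in 3 cases their level there lay above that in the left-out bins of WT beyond counting error. *Tcrg-C1* had 213.8 CPM (138 to 316) in the left-out bins of KO1134 and 67.91 CPM (59.6 to 77.1) in those of KO1308, against 23.9 CPM (15.3 to 35.5) in WT. *Trdc* had 128.3 CPM (71.8 to 212) in the left-out bins of KO1134, against 39.8 CPM (28.4 to 54.1) in WT. These bins held 116946, 3504421 and 1006082 UMIs in KO1134, KO1308 and WT. The *Trbc1* share there was 54.9% (47.8 to 61.8), 34.1% (33.0 to 35.2) and 38.5% (37.2 to 39.9), beside 57.3%, 34.7% and 37.2% in the kept bins. Transcripts that spread from the tissue and tissue in bins of low depth cannot be told apart.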

How the results depend on the processing

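The levels, shares and ratios of the members by section were recomputed under other bin widths, gene limits and bins, the levels also under other denominators. The compartment contrasts, the spread over squares, the edge ratio of *Trac*, the genes most alike and the list counts were recomputed under fewer alternatives each. Of 326 values in all, 276 moved by less than the SD of the KO sections, the counting error of WT or, for numbers of shared genes, 1.5 times. Leaving out 1 of the 2 KO sections always moves a KO mean by less than that SD. Such values could only count as unmoved or reversed. Where the KO sections differ widely, the SD is wide too. The KO1134 alpha-beta to gamma-delta ratio counted as unmoved at 6.39 and, with *Tcrg-C1* to *Tcrg-C4* summed, at 2.74. The 276 values are thus no measure of stability. Per CD3 UMI in place of all UMIs, the KO mean over WT was 1.20 for *Trac* (above WT rather than below), 0.963 for *Trbc1*, 0.666 for *Trbc2*, 2.66 for *Trdc* and 8.32 for *Tcrg-C1*, and single sections turned to 1.41 for *Trac* and 1.21 for *Trbc1* in KO1134 and 1.15 for *Trdc* in KO1308. In T bins alone the *Trac* KO mean was 0.692 and the WT alpha-beta to gamma-delta ratio 65.5, and without lymph-node-like bins the *Trac* mean was 0.547 and *Trac* per beta chain UMI in KO1134 0.101. The *Trdc* KO mean was 0.667 without KO1134 and 1.85 without KO1308. Summing *Tcrg-C1* to *Tcrg-C4*, added after seeing the data, gave 37.4 for the WT ratio. *Trac* per beta chain UMI in WT was 0.0699 in 20 µm bins and 0.0700 at 500 genes. Medullary over cortical, it was 1.84, 1.54 and 1.44 (KO1134, KO1308, WT) with a split at 1, 2.33, 2.01 and 1.72 with a split at 2, and 1.65 (KO1134) and 1.48 (WT) with *Prss16* and *Psmb11* against *Krt5* and *Krt14*. The WT gamma-delta CPM, cortical over medullary, was 1.68 with a split at 1 and 1.71 with those 4 markers. The SD of the *Trbc1* share over squares was 2.68 (10 × 10 bins) and 1.03 points (30 × 30 bins) in WT, and 5.65 points in KO1308 without the squares below 15%, added after seeing the data, where the section's share was 35.8%. From the edge of the thymus area, *Trac* in the outermost 100 µm over that beyond 400 µm turned to 1.496, 1.04 and 1.08 (KO1134, KO1308, WT). The intervals of both zones overlapped in KO1308 and in WT. In KO1134 that area still held lymph-node-like bins. By Pearson correlation, 0 of the 5 genes most like *Trac* were shared in KO1134 and in KO1308 and 2 in WT, and for *Trbc2* 2 were shared in KO1134 and 1 in KO1308. Values of the squares below 15%, the columns, the pairs within bins and the correlations between members were not recomputed. The causes were not tested. No paired analysis was possible because WT had 1 section and the replicate numbers only name the mice. With 1 section per mouse, mice and sections cannot be told apart.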

Other observations

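In the squares of KO1308 below 15%, *Xist*, the transcript of the inactive X chromosome, had 9.71 CPM (4.44 to 18.4; 9 UMIs), against 36.4 CPM (31.6 to 41.8) in the other cortical bins of that section, 30.2 CPM in cortical bins of WT, 81.4 CPM in those of KO1134 and 36.7 CPM in all other kept bins of KO1308. All 3 mice were female. *Xist* was singled out after its value was seen. *Top2a*, a gene of dividing cells, had 475 CPM (431 to 521) against 535 CPM (516 to 555), and *Cldn4*, an epithelial claudin, had 76.6 against 14.0 CPM, 5.47 times as much (3.91 to 7.65). The other 5 medullary epithelial markers lay at 0.989 (*Ccl21a*) to 1.40 times (*Krt14*), with intervals that span 1. *Cd74*, the invariant chain of MHC class II, had 864 against 967 CPM.

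Beyond these squares, a cortical square at the opposite end of KO1308, at 6.21 mm and 6.75 mm on the slide, had a *Trbc1* share of 23.9% (16.8 to 32.1) from 130 UMIs, with 87.5% cortical bins. Of the 15 squares of KO1308 below 30%, 7 lay at x of 0.81 or 1.35 mm. In KO1134 the lowest share among squares with at least 50% thymus bins, 48.3% (46.3 to 50.4), was at 5.13 mm and 3.51 mm, with 402 CPM of *Tcrg-C1* and 153 CPM of *Trdc*.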
